A study of Caenorhabditis elegans with 8 samples.

Results

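The genes described here encode proteins of the precuticle and of the embryonic sheath, the apical matrix that covers the outer surface of the Caenorhabditis elegans embryo. They were chosen by name: noah-1, noah-2, fbn-1, let-653, lpr-1, lpr-3, let-4 and sym-1. Probes were assigned to genes through the transcript name in the array files, and 20010 genes could be named on the array. Of the 8 chosen genes 7 had a probe, 1 each. The fibrillin-related gene fbn-1 matched no named probe and was not analysed here. The 7 probes were well above background on all 8 arrays, so every gene could be compared in every group.

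The precuticle is a transient layer of secreted and membrane-bound proteins that epidermal and tubular epithelial cells lay down before each collagen cuticle. In the embryo it forms the sheath under which the body elongates from an oval into a worm, and it also lines narrow tubes such as the excretory duct. Its proteins fall into a few families: zona pellucida proteins, which assemble into fibrous matrices, lipocalins, which carry lipophilic cargo in other animals, and leucine-rich repeat proteins outside the cell.

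RNA came from wild-type worms (N2) and from worms without seip-1, the gene of seipin, an endoplasmic reticulum protein of lipid droplets. There were 4 groups of 2 arrays: wild-type embryos, seip-1 knockout embryos, wild-type young adults and seip-1 knockout young adults. Adults were collected 52 h after the L1 stage, and embryos were released with hypochlorite from gravid adults of the same age, so they were not of 1 embryonic stage by design. The labels do not name the knockout allele or say whether arrays of a group came from separate cultures, and with n = 2 throughout, the p-values rest on the spread of these arrays, which may be technical. Each ± below is the standard error of the linear model.

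Between 65.7% and 75.5% of the 43603 probes per array were well above background, with the 75th percentile of the signal between 1387 and 2745. Before scaling, the median signals were 74.7 and 77.4 on the wild-type embryo arrays, 265 and 214 on the knockout embryo arrays and 218 to 276 on the adult ones. All embryo arrays shared 1 slide and scan and all adult arrays another. The knocked-out gene itself, seip-1, was above background on every wild-type array and on 0 of the 4 knockout arrays, at least 311-fold lower in knockout embryos and at least 114-fold lower in knockout adults (limma, adjusted p = 2.25e-05 and 4.07e-05). Levels below are multiples of the 75th percentile of the array, and levels of different genes are not compared, since each probe has its own response.

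Of the zona pellucida genes, noah-1 and noah-2 encode related proteins of the sheath, similar to the Drosophila matrix protein NompA. Wild-type embryos read 7.28 and 5.94 times the 75th percentile for noah-1, and knockout embryos 16.3 and 20.4. Its adult values were 0.207 and 0.129 without the knockout and 0.166 and 0.267 with it. Both knockout embryo arrays thus lay above both wild-type embryo arrays, and the adult groups overlapped. For noah-2 the wild-type embryos read 3.62 and 3.17 and the knockout embryos 12 and 14.6. Wild-type adults read 0.176 and 0.149, against 0.175 and 0.195 in knockout adults, again overlapping.

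The zona pellucida gene let-653 encodes a mucin-like protein that keeps the lumen of the excretory duct open. Its level was 1.1 and 0.888 in wild-type embryos, rising to 1.67 and 2.0 in those of the knockout. Wild-type adults read 0.116 and 0.128, and knockout adults 0.180 and 0.134. Here alone among the 7 genes the adult groups did not overlap, although by a narrow margin.

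Both lipocalin-related genes act in the matrix of the excretory tubes, and lpr-3 also in the outer epidermal matrix. The level of lpr-1 was 0.432 and 0.467 in wild-type embryos but 3.42 and 3.52 in knockout embryos. It read 0.0724 and 0.0593 in wild-type adults and 0.0582 and 0.0668 in knockout adults. The arrays within each embryo group differed little, while the adult groups overlapped. For lpr-3 the wild-type embryos read 4.05 and 3.82 and the knockout embryos 21.7 and 21.3. Adult levels of lpr-3 were 0.163 and 0.0854 for the wild type, with 0.119 and 0.292 for the knockout. The replicates of lpr-3 lay close together in embryos and far apart in adults, where they spanned a wider range on the log2 scale than those of the other genes.

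The leucine-rich repeat genes were let-4, which encodes a transmembrane protein of the epidermal and duct surface, and sym-1, a secreted protein found through its lethal interaction with the splicing factor gene mec-8. They are neighbours on chromosome X, with 0 protein-coding genes between them. Levels of let-4 were 1.51 and 1.27 in wild-type embryos but 2.75 and 3.20 in knockout embryos. Its adult values were 0.131 and 0.115 for the wild type, with 0.102 and 0.140 for the knockout. For sym-1 the wild-type embryos read 8.82 and 7.05 and the knockout embryos 12.4 and 15.9. Wild-type adults read 0.454 and 0.274 and knockout adults 0.252 and 0.468. Both genes had separate embryo groups and overlapping adult groups.

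**Figure D1:**
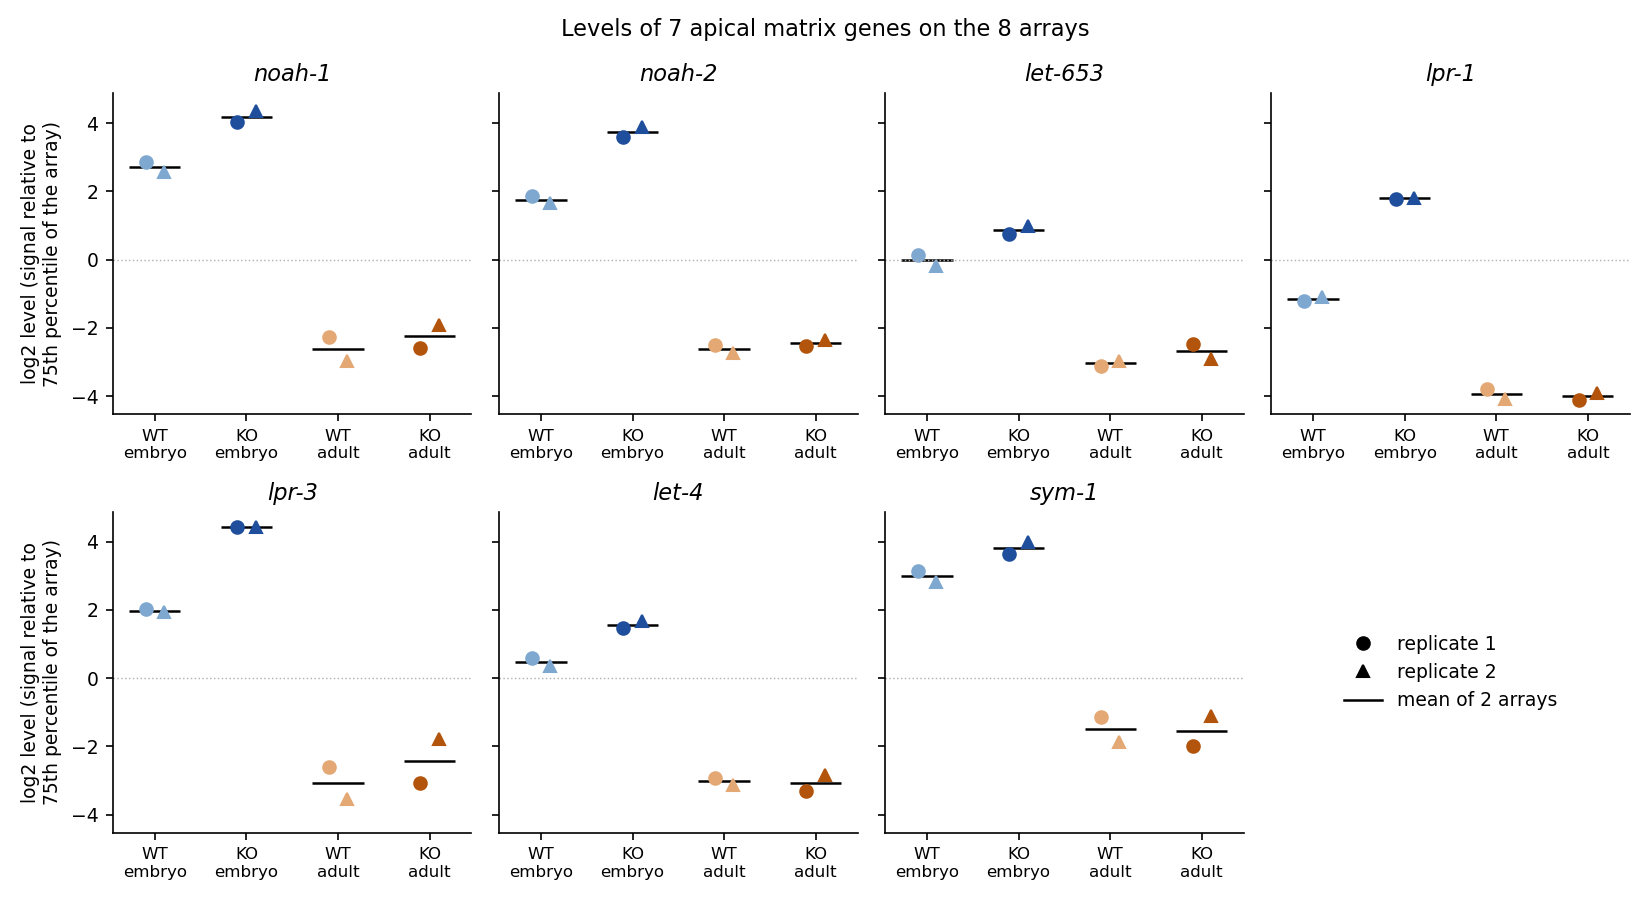
Log2 level of each matrix gene relative to the 75th percentile of its array (vertical axis) on the 8 arrays, with 1 panel per gene, circles for replicate 1, triangles for replicate 2 and a line at the mean of each group. In every panel both knockout embryo arrays lie above both wild-type embryo arrays, and the 4 adult arrays lie below them. With scaling on the median of all probes the mean of the knockout embryos is the lower one for let-653 and sym-1.

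The order of the group means was the same at the top for all 7 genes: knockout embryos, then wild-type embryos, then both adult groups. For noah-1, noah-2, let-653 and lpr-3 the knockout adults came next, and for lpr-1, let-4 and sym-1 the wild-type adults did. Neighbouring groups in this order overlapped only among the adults, and there for every gene but let-653. The embryonic genotypes of sym-1 were separate, but their difference missed the threshold of the test below, whose spread is shared by all 4 groups. The standard deviations of sym-1 were 0.23 and 0.25 in wild-type and knockout embryos, and 0.51 and 0.63 in wild-type and knockout adults.

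The first comparison asks how transcripts differ in embryos without seipin, the stage at which the study's title places an eggshell defect. The matrix genes were higher in knockout embryos: 6 of 7 rose and 0 fell at an adjusted p under 0.05 (limma with Benjamini-Hochberg adjustment over 15396 genes), where 84.9% of all genes tested passed in either direction, 44.6% upward and 40.3% downward. The groups did not overlap for 7 of 7, all higher in the knockout, against 94.8% of all genes in either direction and 49.2% upward. The median difference of the 7 genes was 1.47 on the log2 scale, and that of all genes tested was 0.15. These values depended on the scaling. With arrays scaled on the median of all probes 3 of 7 rose and 0 fell. The median was then 0.42 for the 7 genes and -0.90 for all genes tested, with let-653 (-0.16) and sym-1 (-0.21) below 0. In bulk RNA such as this, more cells of a type and more RNA per cell cannot be told apart.

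The lipocalin-related genes had the largest differences of the 7. Knockout embryos held 7.73-fold more lpr-1 RNA (log2 2.95 ± 0.16, limma adjusted p = 3.22e-05) and 5.47-fold more lpr-3 RNA (2.45 ± 0.46, adjusted p = 0.00236). They were the 2 of 7 that rose by log2 2 or more, as did 28.8% of all genes tested. Even for lpr-1, 1684 of the 15396 genes tested had a larger difference.

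Among the zona pellucida genes, noah-2 was 3.91-fold higher in knockout embryos (log2 1.97 ± 0.17, limma adjusted p = 8.94e-05) and noah-1 2.77-fold higher (1.47 ± 0.32, adjusted p = 0.00455). The duct gene let-653 rose 1.85-fold (0.89 ± 0.21, adjusted p = 0.00605), but with arrays scaled on the median of all probes its difference was -0.16 (adjusted p = 0.562). That scaling lowered the embryo differences of all genes by 1.05 on the log2 scale at the median, to a median of -0.90. The calls of noah-1 (0.42, adjusted p = 0.230) and let-4 (0.05, adjusted p = 0.839) were lost under it too, while noah-2 (0.92), lpr-1 (1.90) and lpr-3 (1.41) kept their direction and their calls.

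The leucine-rich repeat genes had smaller differences than the lipocalin genes. In knockout embryos let-4 was 2.14-fold higher (log2 1.1 ± 0.21, limma adjusted p = 0.00229). The difference of sym-1 was 0.83 ± 0.37 and missed the threshold (adjusted p = 0.0714), with a 95% interval from -0.06 to 1.73. It passed in 7 of the 21 other ways of processing that gave this comparison, among them quantile normalization (1.65, adjusted p = 0.00728), and was -0.21 with scaling on the median of all probes. The 4 embryo arrays alone gave the same 0.83 with a limma adjusted p of 0.00798, and leaving knockout adult array 1 or 2 out of the model, which alters its shared spread, gave 0.0348 or 0.0346.

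**Figure D2:**
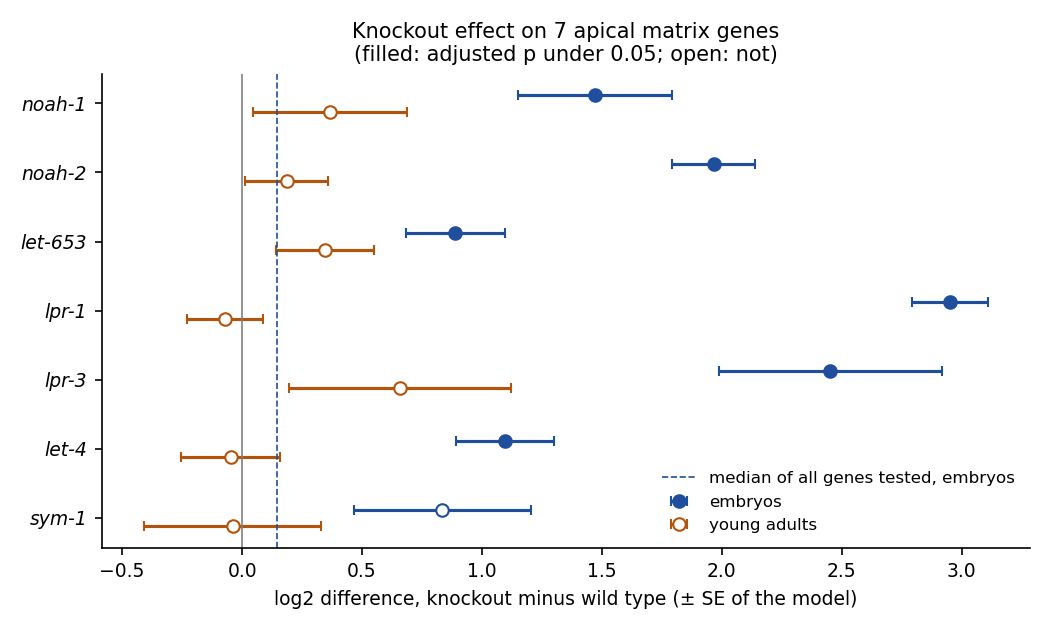
Log2 difference between knockout and wild type with the standard error of the model (horizontal axis) for each matrix gene, in embryos (blue) and young adults (orange), filled where the adjusted p was under 0.05. The embryo differences run from 0.83 for sym-1 to 2.95 for lpr-1, sym-1 being the only open embryo point, and all adult points are open. With scaling on the median of all probes the embryo points of let-653 and sym-1 fall below 0.

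**Figure D3:**
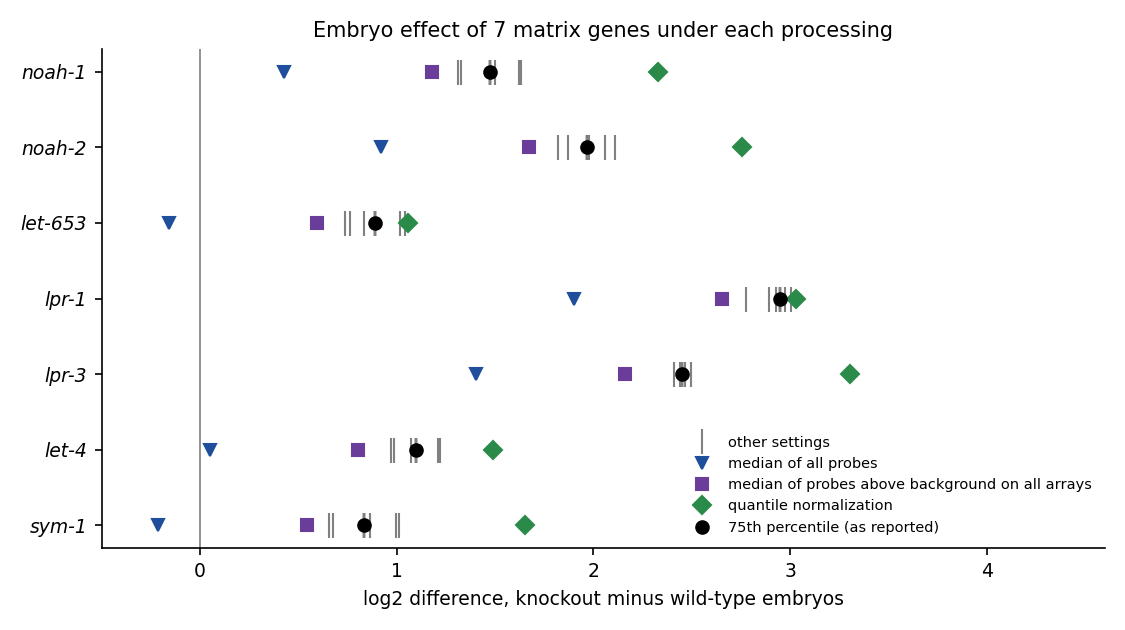
Embryo difference of each matrix gene (horizontal axis, log2, knockout minus wild type) as reported (black circles) and under the other ways of processing, with 3 other scalings marked by shape and colour and the rest as grey ticks. Scaling on the median of all probes gives the lowest value for each gene, below 0 for let-653 and sym-1, and quantile normalization the highest for each gene.

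The 7 genes differed in the size of their change. A ratio between genes on the same array does not depend on how arrays are scaled by a constant, and 20 of the 21 ratios between pairs of the 7 genes had separate genotypes in embryos. Such separation was usual, at 90.7% of the pairs of all genes tested and 77.4% of the pairs of genes that rose, so nothing is read from the count, and the sizes of the changes are given as a description. The ratio of lpr-1 to sym-1, the gene with the smallest difference, was 4.33-fold larger in knockout embryos, at log2 2.27 and 1.96 on the knockout arrays against 0.22 below and 0.22 above the wild-type mean on the wild-type arrays. The ratio of lpr-3 to sym-1 was 3.07-fold larger, and that of noah-2 to sym-1 2.19-fold larger. Within families, lpr-1 gained 1.41-fold on lpr-3, and noah-1 over noah-2 changed by -0.49 on the log2 scale. Quantile normalization does not scale arrays by a constant, and these sizes changed under it. The embryo differences were then 3.30 for lpr-3, 3.03 for lpr-1 and 1.65 for sym-1, so that lpr-3 rose more than lpr-1. The neighbours let-4 and sym-1 differed by 0.26 in their change. The 1 pair whose ratio overlapped between genotypes was let-653 and sym-1, with a change of 0.05.

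Relatives and partners of these genes were taken from lists by family or tissue. The 5 other lipocalin-related genes all rose in knockout embryos (median log2 2.97), among them lpr-2 (3.16 ± 0.16) and lpr-5 (2.95 ± 0.42). Of 34 measured cuticlin and other zona pellucida genes 30 rose and 0 fell (median 2.68), with cut-5, a cuticlin, at 3.27 ± 0.16 and cutl-18 at 3.27 ± 0.15. With scaling on the median of all probes 27 rose and 2 fell. The medians of these lists were thus above the 1.47 of the matrix genes, beside 0.15 for all genes tested. This order depended on the processing. With quantile normalization the median of the matrix genes was 2.33, above the 2.26 of the cuticlin and zona pellucida genes. That of the lipocalin-related genes was then 3.53.

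Of 15 other leucine-rich repeat genes 11 rose and 2 fell (median 2.56), or 11 and 4 with scaling on the median of all probes. Those named by rank were lron-9 (2.75 ± 0.12) and lron-13 (3.17 ± 0.15) upward, and lron-10 (-0.89 ± 0.15) and egg-6 (-1.25 ± 0.24), needed for the eggshell and the excretory duct, downward. Of 13 matrix partners 10 rose and 1 fell (median 2.13), or 9 and 3 with scaling on the median of all probes. The rising ones included the molting kinase genes nekl-3 (2.84 ± 0.15) and nekl-2 (2.26 ± 0.15), and the falling one was sym-3 (-1.26 ± 0.15), found like sym-1 in a screen with mec-8.

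The cells that make the matrix were represented by further lists. Of 10 epidermal transcription factor genes 4 rose and 2 fell (median -0.04), and with scaling on the median of all probes 2 rose and 6 fell. The zinc finger gene blmp-1 rose by 2.71 ± 0.12, and the Grainyhead gene grh-1, not above background in wild-type embryos, was at least 6.41-fold higher. That bound, 2.68 on the log2 scale, holds for this scaling only. The fitted difference of grh-1 was 2.15 with quantile normalization, 1.88 with scaling on the median of all probes and 0.84 with normexp correction. The GATA factor gene elt-1, which specifies epidermal fate, fell by 1.08 ± 0.24. The GATA factor gene egl-18 fell by 0.63 ± 0.22, a call lost with quantile normalization (-0.13, adjusted p = 0.644).

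Of 20 genes of epidermal junctions and attachments 15 rose and 1 fell (median 1.74), or 11 and 7 with scaling on the median of all probes. The claudin-like gene vab-9 rose by 2.42 ± 0.13 and the intermediate filament gene ifa-3 by 2.68 ± 0.15, while hmp-2, a beta-catenin, fell by 0.53 ± 0.21, with 0.16 (adjusted p = 0.395) under quantile normalization. Of 16 body-shape collagen genes tested 15 rose and 0 fell (median 2.44, or 2.34 with 2 genes at their bounds), among them dpy-3 (2.47 ± 0.15) and dpy-10 (2.13 ± 0.14). With scaling on the median of all probes 11 collagens rose and 1 fell. Of 10 excretory system genes 8 rose and 0 fell (median 2.47, or 2.30 with 1 gene at its bound), or 7 and 2 with scaling on the median of all probes. Among them were exc-5, a regulator of the canal's shape, at 2.84 ± 0.13 and vha-5, a proton pump subunit, at 3.24 ± 0.19. Each gene named from these lists had a limma adjusted p under 0.05.

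**Figure D4:**
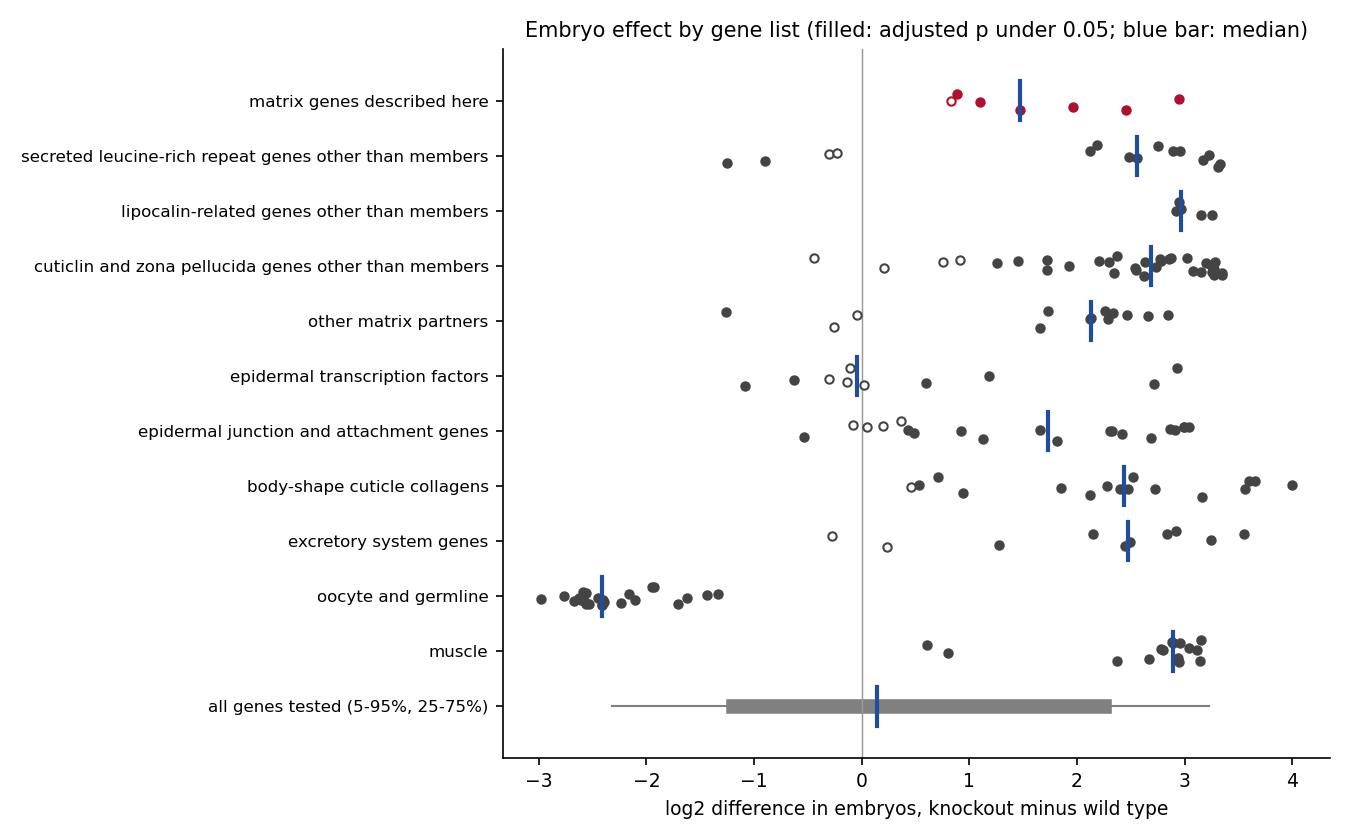
Log2 difference between knockout and wild-type embryos (horizontal axis) of each gene tested in the named lists, filled where the adjusted p was under 0.05, with the median as a blue bar and, at the bottom, the middle 50% and 90% of all genes tested as thick and thin bars. The matrix genes, in red, have a median of 1.47, below those of the cuticlin, lipocalin and collagen lists. With scaling on the median of all probes let-653 and sym-1 lie below 0 and the median of the transcription factors is -1.09. Genes at background in 1 group are drawn at their fitted difference.

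Markers of many cell types differed between the same embryo arrays. The summed level of the 24 oocyte and germline markers was 313 and 361 in wild-type embryos against 65.5 and 77.7 in the knockout, and 24 of 24 fell. Of 14 early zygotic genes 12 fell and 0 rose, with summed levels of 62.8 and 60.8 against 10.8 and 15.2. The 15 muscle markers all rose, with summed levels of 65.7 and 61.9 against 295 and 241. Of 15 neuron markers 13 rose and 1 fell (27.3 and 29.3 against 49 and 38.9), of 12 intestine markers 11 rose and 1 fell (23.6 and 23.5 against 132 and 103), and of 10 pharynx markers 8 rose and 1 fell (11.6 and 10.3 against 45.2 and 32.8). Of all genes tested 44.6% rose and 40.3% fell. With scaling on the median of all probes 13 muscle, 12 neuron, 9 intestine and 8 pharynx markers rose. Then 0 muscle markers and 2 each of the neuron, intestine and pharynx markers fell. All 24 oocyte and germline markers and all 14 early zygotic genes fell too. That scaling lowered embryo differences by 1.05 on the log2 scale at the median, more than the rise of the summed neuron level. The summed level of the 7 matrix genes was 26.8 and 22.6 in wild-type embryos against 70.3 and 81.0 in the knockout. The part of these marker differences in the values of the matrix genes was not tested.

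Markers of adult tissue were low on the embryo arrays. The 5 yolk genes with a probe summed to 0.128 and 0.126 on the wild-type and 0.402 and 0.330 on the knockout embryo arrays, with 474 to 622 in adults. The 14 sperm genes summed to between 0.948 and 1.65 in embryos and between 777 and 823 in adults. In knockout embryos 3 of the 4 yolk genes tested rose, and of 12 sperm genes tested 2 rose and 7 fell. For yolk this became 2 rising and 2 falling under quantile normalization and under scaling on the median of all probes, and for sperm 0 rising and 11 falling under both, or 0 and 9 with normexp correction. Conversely, 9 to 12 of the 14 early zygotic genes were not above background on the adult arrays.

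The knockout embryo arrays themselves differed, and most matrix genes went against the more frequent direction of that difference. Of the 13067 genes called in embryos, 87.6% lay farther from the wild type on knockout array 1, but only 1 of the 6 called matrix genes did, lpr-3. Among called genes that rose, 14.8% were farther on array 2, against 5 of the 6 matrix genes, 1 of 15 muscle genes, 7 of 15 junction genes and 7 of 15 body-shape collagen genes. The matrix genes were not alone in this: of the other rising relatives, 3 of 5 lipocalin-related, 6 of 30 cuticlin and zona pellucida, 2 of 11 leucine-rich repeat and 0 of 8 excretory system genes were farther on array 2. These counts and shares are given for scaling on the 75th percentile only, at 2267 and 2064 on knockout arrays 1 and 2. Scaling on the median of all probes, at 265 and 214, would raise array 2 against array 1 for every gene. On array 2 the matrix genes lay higher than on array 1 by a median of 0.26 on the log2 scale, with a range from -0.03 to 0.36, while muscle markers lay lower (median -0.42) and oocyte and germline markers higher (median 0.24). Over all genes tested the median was 0.02, and 52.2% lay higher on array 2. The difference between the arrays for any 1 matrix gene was below 0.49, the standard deviation of that difference over all genes. Each gene's difference from the wild-type mean on arrays 1 and 2 was 1.31 and 1.63 for noah-1, 1.82 and 2.11 for noah-2 and 0.76 and 1.02 for let-653. It was 2.93 and 2.97 for lpr-1 and 2.47 and 2.44 for lpr-3, so both lipocalin genes hardly differed between the arrays. The leucine-rich repeat genes had 0.98 and 1.21 for let-4 and 0.66 and 1.01 for sym-1.

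**Figure D5:**
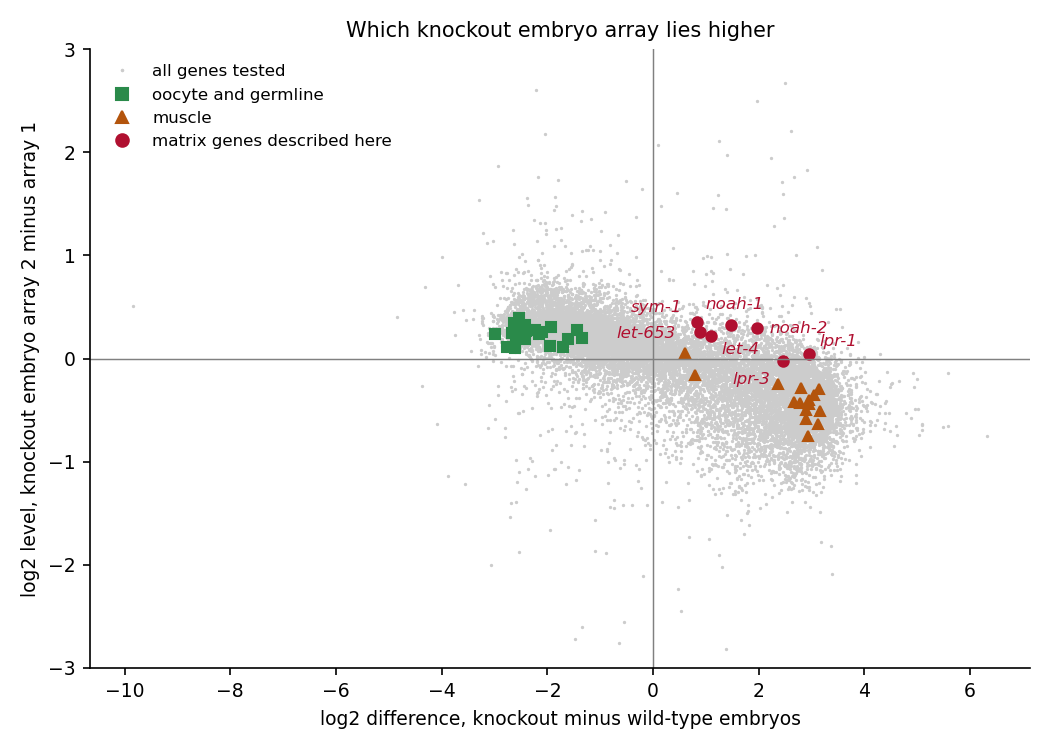
For every gene tested, the log2 difference between knockout and wild-type embryos (horizontal axis) against the log2 level on knockout embryo array 2 minus that on array 1 (vertical axis), with muscle markers, oocyte and germline markers and the matrix genes marked. Rising genes such as the muscle markers mostly lie below 0 on the vertical axis, while 6 of the 7 matrix genes lie above it. Of all genes tested, rising or falling, 52.2% lie above 0 on this axis.

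In young adults the same comparison gave 0 of 7 matrix genes past the threshold, where 15 of 15007 genes tested, or 0.1%, passed (limma with Benjamini-Hochberg adjustment). At an unadjusted p under 0.05 the count was also 0 of 7, against 5.26% of all genes. The differences were 0.37 ± 0.32 for noah-1 and 0.19 ± 0.17 for noah-2 on the log2 scale, with 95% intervals from -0.41 to 1.14 and from -0.23 to 0.61. For let-653 the difference was 0.35 ± 0.21 (-0.15 to 0.84), and its groups were the only ones of the 7 that did not overlap, as for 28.1% of all genes. The lipocalin genes had -0.07 ± 0.16 for lpr-1 (-0.45 to 0.31) and 0.66 ± 0.46 for lpr-3 (-0.46 to 1.78). For let-4 it was -0.05 ± 0.21 (-0.54 to 0.45) and for sym-1 -0.04 ± 0.37 (-0.93 to 0.85). The adjusted p was 1.00 for each. The interval of lpr-1 left out the 2.95 seen in embryos, whereas that of sym-1 held the embryo value of 0.83. Of the family, tissue and marker lists named above, 0 genes passed in adults.

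The adult arrays spread more than their genotypes. Wild-type array 1 lay above array 2 and knockout array 2 above array 1 for 6 of 7 matrix genes, with let-653 opposite in both, and for 37.3% of all genes. The same was true of 19 of 24 cuticlin and zona pellucida genes, 15 of 18 body-shape collagens, 0 of 24 oocyte and germline markers and 0 of 5 yolk genes. For lpr-3 the knockout arrays lay 0.01 and 1.30 above the wild-type mean. Without knockout array 1 the differences of let-4, sym-1 and lpr-1 were 0.18, 0.41 and 0.03, and without knockout array 2 they were -0.28, -0.49 and -0.17.

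The difference of the knockout effect between the stages was tested as an interaction. The effect was more positive in embryos for 4 of 7 matrix genes and more negative for 0 (limma adjusted p under 0.05), where 72.6% of 16831 genes passed, 39% of all tested in the positive and 33.6% in the negative direction. It was larger in embryos by 3.02 ± 0.22 for lpr-1 (adjusted p = 2.56e-04), by 1.78 ± 0.25 for noah-2 (adjusted p = 0.00104), by 1.14 ± 0.29 for let-4 (adjusted p = 0.0116) and by 1.79 ± 0.66 for lpr-3 (adjusted p = 0.0443). The lipocalin gene lpr-3 was near the threshold and lost the call without any 1 array other than wild-type adult 2 or knockout adult 2 (adjusted p from 0.0797 to 0.122). The values of noah-1 (1.11 ± 0.45, adjusted p = 0.0644), let-653 (0.54 ± 0.29, adjusted p = 0.135) and sym-1 (0.87 ± 0.52, adjusted p = 0.173) missed it. In the 19 other ways of processing that gave this value, noah-1 passed in 7, with adjusted p between 0.00946 and 0.964 over all of them, and sym-1 in 3, with adjusted p between 0.0346 and 0.717. Among these, noah-1 passed without wild-type adult array 2 (adjusted p = 0.0314) or knockout adult array 2 (adjusted p = 0.0243), and sym-1 without the latter (adjusted p = 0.0401). With scaling on the median of all probes lpr-1 alone kept the call.

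Wild-type embryos and wild-type adults differed for all members. Each of the 7 genes was higher in embryos (limma adjusted p under 0.05), where 84% of 16119 genes tested passed, 41.4% of them higher in embryos and 42.6% lower, both as shares of all tested. The median of the 7 genes was 4.38 on the log2 scale, and that of all genes was 0.01. Stage and slide cannot be told apart here.

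The zona pellucida genes noah-1 and noah-2 were 40.3-fold (log2 5.33 ± 0.32, limma adjusted p = 8.95e-06) and 20.9-fold (4.38 ± 0.17, adjusted p = 1.64e-06) higher in wild-type embryos than in wild-type adults, and let-653 8.09-fold (3.02 ± 0.21, adjusted p = 1.59e-05). Of the lipocalin genes lpr-3 was 33.3-fold higher (5.06 ± 0.46, adjusted p = 6.45e-05) and lpr-1 6.85-fold higher (2.78 ± 0.16, adjusted p = 7.07e-06). The leucine-rich repeat genes sym-1 and let-4 were 22.3-fold (4.48 ± 0.37, adjusted p = 3.85e-05) and 11.3-fold (3.50 ± 0.21, adjusted p = 8.12e-06) higher. The gene with the largest knockout difference in embryos, lpr-1, thus had the smallest stage difference of the 7. Both comparisons use the wild-type embryo arrays.

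Related lists were mixed between the stages. Of 34 cuticlin and zona pellucida genes 25 were higher and 4 lower in wild-type embryos, and of 5 lipocalin-related genes 4 were higher and 1 lower. Of 18 body-shape collagens 5 were higher and 13 lower (median -3.79, or -3.19 with 4 genes at their bounds), and of 9 epidermal transcription factor genes 8 were higher and 1 lower. Of 16 other leucine-rich repeat genes 7 were higher and 7 lower, of 13 matrix partners 10 and 3, of 20 junction and attachment genes 12 and 7, and of 10 excretory system genes 5 and 4.

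Likeness of profile was measured as the root-mean-square difference of log2 levels over the 8 arrays, each gene centred on its own mean. These arrays share stage, genotype and slide, so the measure describes the same 4 group means for every gene. Among the 7 genes, noah-1 and noah-2 were closest (0.40), with 12 of 16830 other genes nearer to noah-1 than noah-2 was. The next pairs were lpr-3 with noah-1 (0.41), let-4 with sym-1 (0.47) and let-653 with let-4 (0.48). The distance to the nearest of the other 6 genes was largest for lpr-1, at 0.62 from noah-2, with 419 genes nearer. The largest distance within the 7 genes was that between let-653 and lpr-3 (1.54).

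Other genes lay closer still to single members. The nearest was unc-6, which encodes netrin, to let-4 (0.11), followed by the LIM homeobox gene lim-4 to lpr-1 (0.13), the laminin gene lam-3 to let-653 (0.16), the cuticle collagen gene dpy-7 to lpr-3 (0.17) and the hedgehog-related wrt-10 to noah-1 (0.17). The nearest to noah-2 was famh-161 (0.19) and to sym-1 srt-63 (0.22), both at background on all 4 adult arrays. Nearest to the mean profile of the 7 genes were arl-6 (0.19, at background on all 4 adult arrays), eyg-1 (0.19), egl-43 (0.23), pat-9 (0.25) and dpy-10 (0.25).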

How the data were processed

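Per the labels, Cy3-labelled total RNA (0.2 µg) of 8 samples was measured on 1-colour Agilent arrays. The deposited intensity values are processed signals of Agilent Feature Extraction (10.7.1.1, per the submitters' processing notes), background-subtracted within each array and not scaled between arrays, per the file headers. The deposited log2 value table equals log2 signal minus the array's 75th percentile, centred on the wild type of each stage: of 43585 probes compared, 9 values differed by over 0.01.

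From the processed signals, log2 values were averaged over a probe's spots, without control or outlier spots (0 were saturated), and the 75th percentile of the array was subtracted. Of 43603 probes 31505 were named by sequence name and 3674 by transcript accession through RefSeq, and 8424 stayed unnamed. A probe counted as measured if 1 or more groups had it well above background on every array, and the brightest measured probe represented each of 16831 genes. A mean per group was fitted to all 8 arrays with limma 3.58.1 in R 4.3.3 (two-sided, 4 residual degrees of freedom plus 2.39 from the prior), with Benjamini-Hochberg adjusted p under 0.05 as the threshold. Genes were tested if measured in 1 or more of the groups compared. For a gene at background in the other group, folds are bounds that use the lowest signal called above background there. The fit and the calls were tested on simulated data that were already scaled, so that test did not cover the scaling step. The number of arrays limits the precision.

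Members and lists were chosen with earlier results of these data known. From each list the text names the 2 called genes with the smallest p-value in each direction in embryos, and the nearest genes by profile. The symbols vit-3, msp-10, msp-57, msp-77 and unc-17 matched no named probe. Promoters and proteins were not analysed here. Alternatives covered scaling, background correction, probe filter and choice, prior, replicate block, samples in the fit, the deposited table and leaving out each array. Tables and figures were made with Python 3.11.15, pandas 2.3.3, numpy 2.4.6 and matplotlib 3.10.9.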

Additional observations from a re-analysis of the deposited data

Results flagged for a closer look

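Of the 7 matrix genes 4 had a knockout effect that differed between embryos and young adults by the test of the difference itself (limma, n = 2 per group). The effect was larger in embryos by 3.02 on the log2 scale for lpr-1 (2.95 in embryos against -0.07 in adults), by 1.78 for noah-2 (1.97 against 0.19), by 1.79 for lpr-3 (2.45 against 0.66) and by 1.14 for let-4 (1.1 against -0.05). Of all genes tested 72.6% passed this test. Over the other ways of processing that gave the value, lpr-1 passed in 19 of 19, noah-2 and let-4 in 18 of 19 each and lpr-3 in 9 of 19.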

How the results depend on the processing

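Of 22 other settings, 20 gave the stage differences and 21 the embryo differences. Under these, the stage differences of all 7 genes kept direction and call, as did the embryo differences of noah-2 (0.92 to 2.76), lpr-1 (1.90 to 3.03) and lpr-3 (1.41 to 3.30). Scaling on the median of all probes left 3 of 7 matrix genes called in embryos and 1 of 7 for the difference between stages. Under it let-653 and sym-1 were -0.16 and -0.21 in embryos, and -0.54 and -0.21 for the difference between stages. Embryo calls over all genes were then 4979 upward and 8322 downward, and 6350 and 6965 with scaling on probes above background on all arrays. They were 6322 and 6208 with quantile normalization, 5710 and 6511 with normexp correction and 4972 and 5554 with genes kept where their probe was above background on all 8 arrays.

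In adults, where no matrix gene was called under any setting, lpr-1 was 0.014 with quantile normalization. Without 1 array, lpr-1 lay between -0.22 and 0.072, let-4 between -0.28 and 0.18 and sym-1 between -0.49 and 0.41, each positive without wild-type adult replicate 1 or knockout adult replicate 1. Genes called in adults numbered 52 with normexp, 24 with a trended and robust prior and 1 with the adult arrays alone, and between 2 and 131 without 1 array (2 to 5 without an embryo array, 40 to 131 without an adult array). With every probe counted, 26038, 24057 and 27235 probes were called in embryos, for the difference and between stages, since there are more probes than genes. Without 1 array, 6 to 7 matrix genes were called in embryos and 3 to 6 for the difference.

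Deviations of arrays with the same replicate number correlated at 0.00 in embryos and -0.48 in adults, so the numbers were not taken to pair samples. A replicate block gave 12196 genes and 6 matrix genes in embryos, 2 and 0 in adults, 10670 and 3 for the difference and 11782 and 7 between stages. With the numbers of the knockout adults crossed, 7 matrix genes were called in embryos and 1 gene in adults. Since 84.9% of all genes tested were called in embryos in the main fit, nothing is read from the count of 7. The crossed block, scaling on probes above background on all arrays and normexp on the median signal were chosen after seeing the data. Normexp on the mean signal was not run, since the files used hold no such column. The causes of these shifts were not tested.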

Other observations

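The 7 genes lie on 3 chromosomes whose genes had unlike embryo differences, given here as values with no test. On chromosome X, which holds lpr-3, let-4 and sym-1, 62.4% of 2230 genes tested were higher in knockout embryos and 22.1% lower, with a median of 1.56 on the log2 scale. On chromosome I, which holds noah-1 and lpr-1, 34.4% of 2450 genes were higher and 50% lower, with a median of -0.50. On chromosome IV, which holds noah-2 and let-653, 44.8% of 2557 genes were higher and 40.8% lower, with a median of 0.18. The differences of lpr-1 (2.95) and noah-1 (1.47) thus lay above the median of chromosome I. Those of noah-2 (1.97) and let-653 (0.89) lay above the median of chromosome IV. On chromosome X, lpr-3 (2.45) lay above the median, while let-4 (1.1) and sym-1 (0.83) lay below it.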
